A study of Mus musculus with 6 samples.

Results

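Amino acid transporter genes were described here in splenic B cells of mice with and without TRAF3. They were taken by gene symbol from the solute carrier families SLC1, SLC3, SLC6, SLC7, SLC36, SLC38 and SLC43, which gave 57 of the 16110 genes named on the array, carried by 81 probes. One of the 57, Slc7a6os, shares only its name with the family, since it is the opposite-strand neighbour of Slc7a6 and encodes no carrier. Total RNA was hybridised to 6 Illumina arrays read in a single colour. The control group held 3 arrays of normal splenic B cells, and the TRAF3KO group held 3 arrays of premalignant splenic B cells whose genotype is given as TRAF3-/-. The labels name no strain, age or method of deletion, and do not say whether each array came from its own mouse. The p-values therefore cover the spread between these samples alone, which may be technical in part. Traf3 itself was not analysed here. TRAF3 is an adaptor protein that holds back non-canonical NF-kB signalling and the survival of B cells, and the comparison asks how premalignant cells lacking it differ from normal ones.

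Resting lymphocytes take up amino acids slowly, and uptake increases when they are activated to grow and divide. Large neutral amino acids such as leucine enter through heterodimers of the CD98 heavy chain, encoded by Slc3a2, with a light chain such as LAT1 (Slc7a5), and glutamine enters through sodium-coupled carriers of the SLC1 and SLC38 families. The kinase complex mTORC1 senses leucine and arginine at the lysosome, and the transcription factor ATF4 raises many carriers and amino acid enzymes when amino acids run short.

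All values are log2 intensities as deposited, where 1 unit is a doubling and 0 is the floor of the scale. A probe was tested only if it lay above the 40th percentile of its array (on average log2 3.96, an intensity of 15.6) on at least 3 of the 6 arrays, and a gene was read from its brightest tested probe. Of the 57 genes 33 were tested (57.9%, against 64.0% of all named genes), and each of the 33 lay above that level on at least 1 array of each group. Levels of different probes cannot be set against each other, so every comparison below is of 1 gene between groups.

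In a principal component analysis the arrays split by group along component 1 (25.6% of the variance), while control replicate 2 lay far from the others along component 2 (20.6%, at -90.7 against -17.8 to 43.3). Judged by Xist and Eif2s3y, the RNA of 2 control arrays (replicates 1 and 3) and of TRAF3KO replicate 1 was male and that of the rest female. All 10 pan-B markers on the array lay above the 40th percentile on all 6 arrays. Of these 1 fell, Fcrla, by 0.32 (limma adjusted p = 0.011), and 2 were lower at an unadjusted p under 0.05. The median difference of the 10 was -0.01, with 3 positive. Their summed intensity was 333897 to 337474 in control and 311928 to 327634 in TRAF3KO, with no overlap. Fcrla is bright (mean 15.95 in control and 15.63 in TRAF3KO), so its fall alone lowers that sum. Among other cell types, 2 of 8 tested monocyte and macrophage markers fell, C1qc and Lyz2. Of the 8, 5 were lower and 0 higher at an unadjusted p under 0.05 (limma), with a median difference of -1.67 and 1 positive. For all 11 on the array the summed intensity was 6128 to 10542 over control arrays and 5504 to 6227 over TRAF3KO arrays. Without Ctsb, the brightest of them, the sums were 1922 to 5291 and 1301 to 2115. The summed intensity of 10 dendritic cell markers was 24668 to 27501 in control and 17011 to 18916 in TRAF3KO (Itgax at the floor on every array). Without Cst3, the brightest of them, the sums overlapped (1885 to 2832 and 1650 to 2157). Of 7 tested Cst3 fell by 0.62 and Zbtb46 rose, from the floor on all control arrays to 6.35, 6.51 and 7.02. Zbtb46 passed the filter through the TRAF3KO arrays alone, so its call rests on the control floor, which cannot be read as absence. The sum of 9 plasma cell markers was 61209 to 63626 against 68542 to 75157, and 10026 to 10697 against 11586 to 12736 without Mzb1, the brightest. Of 6 tested Xbp1 rose by 0.48 and Sdc1, a surface marker of plasma cells, fell by 2.22. T cell markers summed to 291 to 416 and 262 to 455, with Cd8a and Lat at the floor on every array and 0 of 6 called by limma (1 lower at an unadjusted p under 0.05). Of the other lists, 1 of 6 tested erythroid markers fell, at sums of 76799 to 80108 in control and 63062 to 77337 in TRAF3KO. The median difference of these 6 was -0.93, with 0 positive. Without Hba-a1, the brightest, the erythroid sums were 5443 to 8766 and 1223 to 6124. By limma 0 of 4 neutrophil markers and 0 of 3 natural killer cell markers were called (0 also unadjusted). Their sums were 175 to 360 and 106 to 155 for neutrophils, and 2374 to 3812 and 2712 to 3318 for natural killer cells. In a bulk sample fewer cells of a type and less RNA per cell cannot be told apart, and the part of these markers in the results below was not tested.

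Among the 33 tested transporter genes 1 was higher in TRAF3KO cells, Slc7a5, and 0 were lower (limma, adjusted p under 0.05 over all tested probes). That is 3.03% of them higher, against 2.3% higher and 2.14% lower of all 10304 tested genes, so the share of transporters called was near the background. At an unadjusted p under 0.05 there were 5 members (15.2%, against 16.9% of all genes), all of them higher and 0 lower: Slc1a4, Slc7a3, Slc7a5, Slc7a6 and Slc7a7. Groups did not overlap for 4 members (12.1%, against 22.4% of all genes), namely Slc7a5, Slc7a6, Slc7a3 and Slc1a4. The median difference over the 33 was -0.08, against 0.00 over all tested genes, with 15 positive and 18 negative and a range of -1.09 to 1.26. Transporter probes were also noisier, since their median SE was 0.42 and that of all genes 0.18.

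**Figure D1:**
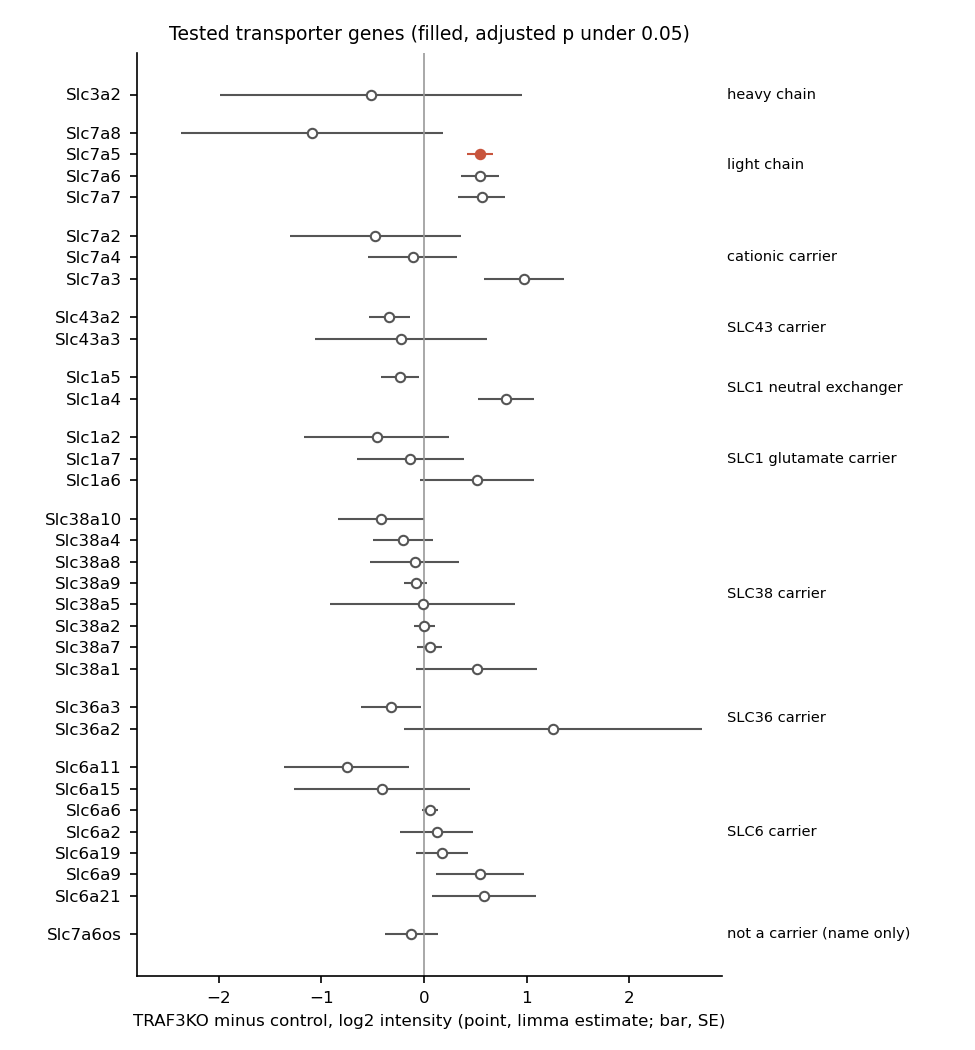
Difference between TRAF3KO and control in log2 intensity (x axis) for the 33 tested genes, ordered by role (y axis), with limma estimates as points and SE as bars. Slc7a5, the only filled point, passed the test at 0.54, beside Slc7a6 and Slc7a7 at 0.55 and 0.56. Bars were long for the dim Slc3a2 and Slc7a8, and for Slc36a2, which had control array 3 at the floor.

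Slc7a5 encodes LAT1, the light chain that exchanges intracellular glutamine for leucine and other large neutral amino acids. Its log2 intensity was 10.15, 10.66 and 10.45 on control arrays 1 to 3 and 11.07, 10.94 and 10.89 on TRAF3KO arrays 1 to 3. Every TRAF3KO array was above every control array, and the control arrays were spread more widely than the TRAF3KO arrays. The mean rose from 10.42 ± 0.25 to 10.96 ± 0.09 (SD, n = 3), a difference of 0.54 ± 0.13 (log2 and SE, 95% interval 0.27 to 0.82) or 1.46-fold, with a limma adjusted p of 0.037. The call was kept without control replicate 2, the array that stood apart (0.66, adjusted p = 0.018). It was lost when any other array was left out (5 of 6 fits, adjusted p from 0.062 to 0.13), with a block for inferred sex (0.51, adjusted p = 0.089), without a filter, trend or variance moderation (0.25 to 0.28) and with the replicate number as a block (adjusted p = 0.051).

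**Figure D2:**
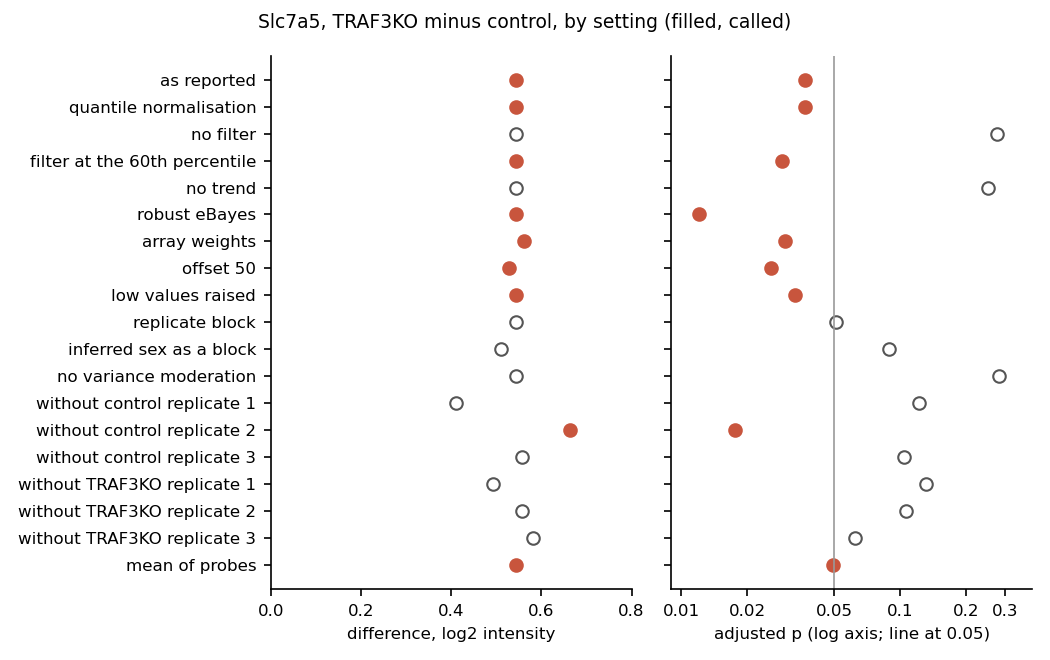
Slc7a5 under each setting (y axis), with the log2 difference between TRAF3KO and control on the left and the limma adjusted p on a log axis on the right. The difference stayed between 0.41 and 0.66, and the adjusted p ran from 0.012 with robust eBayes to 0.28 without variance moderation, so that 8 of 18 alternatives kept the call (filled points).

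The light chains Slc7a6 and Slc7a7 encode y+LAT2 and y+LAT1, which pair with the same heavy chain and exchange cationic for neutral amino acids. Slc7a6 measured 7.28, 7.26 and 7.17 on the control arrays and 7.68, 7.87 and 7.82 on the TRAF3KO arrays. These groups did not overlap, yet the difference of 0.55 ± 0.19 (1.46-fold, 95% interval 0.13 to 0.96) did not pass over all probes (limma adjusted p = 0.17, and 0.071 to 0.39 over the alternatives). Its opposite-strand neighbour Slc7a6os differed by -0.12 ± 0.26 (adjusted p = 0.86), with overlapping groups. Slc7a7 measured 7.91, 7.62 and 7.77 in control and 8.61, 8.58 and 7.80 in TRAF3KO. TRAF3KO arrays 1 and 2 were high, while TRAF3KO array 3 lay among the control arrays. The difference of 0.56 ± 0.23 was not called (adjusted p = 0.25), except in the fit that left out TRAF3KO replicate 3 (0.83, adjusted p = 0.046), and a second probe of Slc7a7 gave 0.54 ± 0.27 (adjusted p = 0.37). The sizes for Slc7a5, Slc7a6 and Slc7a7 were thus alike, and only Slc7a5 passed the test.

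The heavy chain and the remaining light chains were dim. The single probe of Slc3a2, which encodes the CD98 heavy chain, measured 2.04, 5.28 and 4.71 in control and 0.93, 4.52 and 5.04 in TRAF3KO. It lay above the 40th percentile on 2 arrays of each group, and the arrays numbered 1 were the low ones in both. Its difference of -0.51 ± 1.47 had a 95% interval of -3.76 to 2.73, so neither a large increase nor a large decrease of this heavy chain was detectable with this probe. Slc7a8, the light chain LAT2, lay at 4.67, 2.91 and 5.48 in control and 4.73, 1.58 and 3.46 in TRAF3KO, differing by -1.09 ± 1.27 (adjusted p = 0.73). The cystine and glutamate exchanger Slc7a11 was listed at the floor on all 6 arrays, as was Slc7a12. Genes of general use, such as Lamtor3, Sms and Gfpt1, were listed at the floor on all arrays too, so a floor value cannot be read as absence of the RNA. Slc7a9, Slc7a10, Slc7a13 and Slc7a15 were not tested either. In all, 4 of 10 light chain genes were tested.

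**Figure D3:**
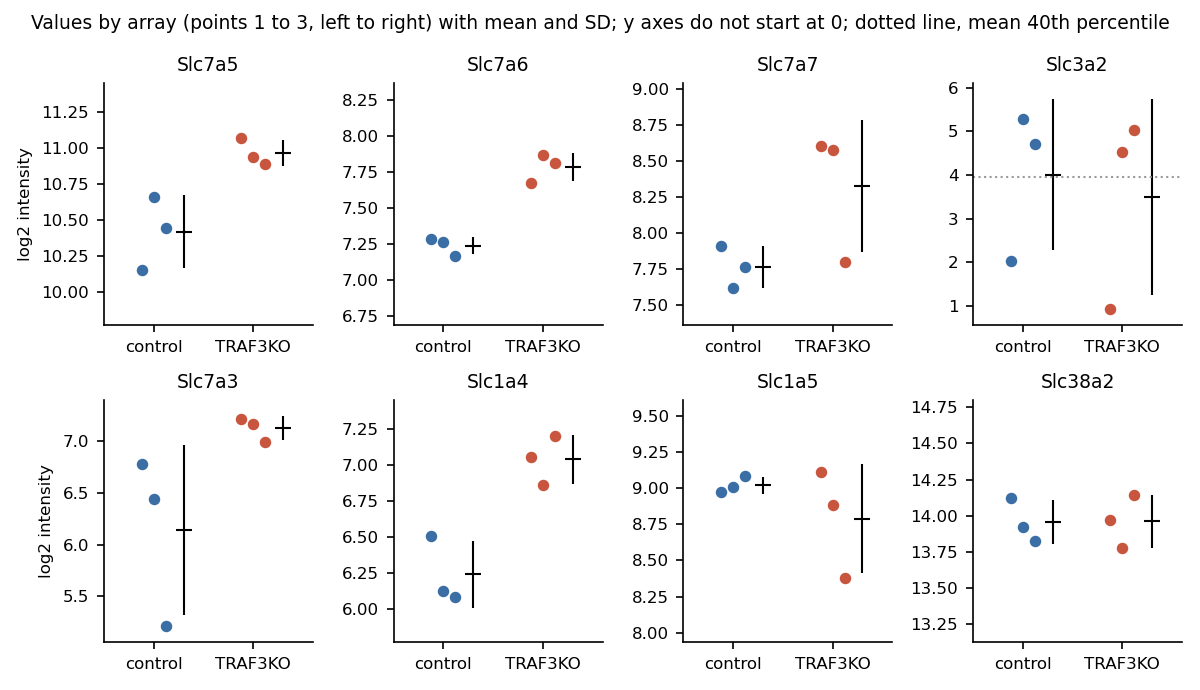
Log2 intensity (y axes, not starting at 0) of 8 members on the 3 control and 3 TRAF3KO arrays, with the mean and SD of each group beside the points and a dotted line at the mean 40th percentile, drawn only where it falls inside the axis. The groups are apart for Slc7a5, Slc7a6, Slc7a3 and Slc1a4, meet at 1 TRAF3KO array for Slc7a7, and overlap for Slc3a2, Slc1a5 and Slc38a2.

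Cationic carriers import arginine, lysine and ornithine. Slc7a3 (CAT3) measured 6.77, 6.44 and 5.21 in control and 7.21, 7.16 and 6.99 in TRAF3KO. All TRAF3KO arrays were above the control arrays, of which array 3 was far below the other two. The difference was 0.98 ± 0.39 (1.97-fold, adjusted p = 0.24), and its 95% interval was 0.12 to 1.84. Without control replicate 3 the difference was 0.51. A second probe overlapped between groups, at 0, 6.58 and 1.32 in control and 4.36, 4.75 and 6.58 in TRAF3KO (2.60 ± 1.62), and the mean of both probes gave 1.79, not called. The main cationic carrier of many cell types, Slc7a1 (CAT1), was under the 40th percentile on all control arrays (1.49, 0 and 0) and above it on 2 TRAF3KO arrays (2.72, 4.25 and 4.37). It therefore missed the filter and was not tested, and no fold is given because the TRAF3KO mean of 3.78 was itself under the mean 40th percentile. A second, dimmer probe of Slc7a1 lay at 2.04, 0 and 0 in control and at the floor on all TRAF3KO arrays. For Slc7a2 (CAT2) the brightest probe gave -0.47 ± 0.83, and 2 dimmer probes gave -1.19 ± 0.70 and 2.71 ± 1.51, so its probes disagreed in sign (adjusted p from 0.42 to 0.83). Slc7a4 differed by -0.11 ± 0.43.

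Among carriers of small neutral amino acids, Slc1a4 (ASCT1), which exchanges serine, alanine and cysteine, measured 6.51, 6.13 and 6.09 in control and 7.06, 6.86 and 7.20 in TRAF3KO. The groups were apart, with a difference of 0.80 ± 0.28 (1.74-fold, 95% interval 0.19 to 1.41), which did not pass over all probes (adjusted p = 0.17, and 0.14 to 0.35 over the alternatives). Slc1a5 (ASCT2), a glutamine carrier of proliferating cells, measured 8.97, 9.01 and 9.09 in control and 9.11, 8.89 and 8.38 in TRAF3KO. TRAF3KO array 3 was the low one, and the groups overlapped. Its difference was -0.23 ± 0.18 (adjusted p = 0.58), and its second probe gave -0.34 ± 0.16 (adjusted p = 0.33). The 95% interval of the brightest probe was -0.63 to 0.17. Of the glutamate carriers, Slc1a6 and Slc1a7 differed by 0.52 ± 0.56 and -0.13 ± 0.52. The 3 tested probes of Slc1a2 gave -0.46 ± 0.70, -3.36 ± 1.58 and 0.37 ± 2.28, none of which was called (adjusted p = 0.33 to 0.96).

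The SLC38 family had 8 of 10 members tested and 0 called by limma, also at an unadjusted p under 0.05, with differences of -0.42 to 0.51. Slc38a2 (SNAT2), a sodium-coupled glutamine and alanine carrier that cells raise on amino acid shortage, was bright and steady. It measured 14.12, 13.92 and 13.82 in control and 13.97, 13.78 and 14.14 in TRAF3KO, and no order of the groups was visible. The difference was 0.01 ± 0.10 with a 95% interval of -0.22 to 0.23, and 2 dimmer probes gave 0.15 ± 0.11 and 0.04 ± 0.77. Slc38a9, a lysosomal carrier through which mTORC1 senses arginine, differed by -0.08 ± 0.11 (95% interval -0.32 to 0.16), and a second tested probe gave -0.09 ± 0.14. Slc38a7, a lysosomal glutamine carrier, differed by 0.06 ± 0.12. Slc38a1 (SNAT1) was 5.15 ± 0.42 in control and 5.66 ± 0.99 in TRAF3KO (SD, n = 3), differing by 0.51 ± 0.59 (adjusted p = 0.72). The dim Slc38a5 (SNAT5) differed by -0.01 ± 0.90. The 95% intervals of Slc38a1 (-0.79 to 1.81) and Slc38a5 (-2.01 to 1.98) were wide enough to hold a doubling.

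In the SLC43 family Slc43a2 (LAT4), a facilitative carrier of branched-chain amino acids and phenylalanine, was 7.85 ± 0.23 in control and 7.51 ± 0.11 in TRAF3KO (SD, n = 3). Its difference of -0.34 ± 0.20 was not called (adjusted p = 0.45), and a second probe gave -0.26 ± 0.40. Slc43a3, a carrier of purine bases, differed by -0.22 ± 0.84. Of the proton-coupled SLC36 carriers, Slc36a3 differed by -0.32 ± 0.29 and Slc36a2 by 1.26 ± 1.45. The latter was the largest positive difference among tested members and rested on control array 3 at the floor (6.14, 5.98 and 0, against 4.16, 5.39 and 6.35). Without control replicate 3 it was -0.76. Slc36a1, the lysosomal carrier PAT1, was above the 40th percentile on 1 array of each group and was not tested.

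The SLC6 family holds carriers of neurotransmitters, taurine, creatine and neutral amino acids, many of them known from nerve or gut. Of its 18 members 7 were tested and 0 were called by limma, also at an unadjusted p under 0.05 (adjusted p from 0.59 to 0.90). Slc6a6, the taurine carrier, was bright at 12.92 ± 0.13 in control and 12.98 ± 0.05 in TRAF3KO (SD, n = 3), and its difference of 0.06 ± 0.08 had a 95% interval of -0.11 to 0.23. Slc6a11, a carrier of the neurotransmitter GABA, had the largest negative difference of the family, -0.75 ± 0.61, and its TRAF3KO arrays ran from 4.05 to 6.28 around control arrays of 5.71 to 5.87. Slc6a21 differed by 0.59 ± 0.50 and Slc6a9, a glycine carrier, by 0.55 ± 0.43. Slc6a2, Slc6a15 and Slc6a19 differed by 0.13, -0.41 and 0.18.

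The 24 members that were not tested fell into 3 groups by signal. On all 6 arrays 7 lay at the floor, namely Slc6a5, Slc6a14, Slc6a20a, Slc6a20b, Slc7a11, Slc7a12 and Slc38a3. Another 5 were never above the 40th percentile (Slc6a7, Slc6a8, Slc7a9, Slc7a13 and Slc7a15). The last 12 exceeded it on 1 array (Slc1a3, Slc6a3, Slc6a4, Slc6a12, Slc7a10, Slc7a14 and Slc38a11) or on 2 (Slc1a1, Slc6a13, Slc6a17, Slc7a1 and Slc36a1). Just inside the filter, with 3 arrays above, were Slc6a15 and Slc7a8. Slc6a13, a GABA carrier, lay at the floor on 4 arrays and at 5.01 and 5.43 on TRAF3KO arrays 1 and 2, and no test was made of it.

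Genes that use or sense amino acids were counted in the same fit, in which 2.3% of all tested genes were higher and 2.14% lower. The 18 tested cytosolic aminoacyl-tRNA synthetases, which charge tRNAs with their amino acids, had 3 members higher and 0 lower, a median difference of 0.22 (0.00 over all genes) and 17 positive differences. Iars, the isoleucine enzyme, rose from 10.40 ± 0.19 to 10.91 ± 0.10 (SD, n = 3), by 0.51 ± 0.11 (adjusted p = 0.028), though the mean of its probes gave -0.12. The valine enzyme Vars rose by 0.46 ± 0.10 (adjusted p = 0.029) and Farsb, a subunit of the phenylalanine enzyme, by 0.28 ± 0.06 (adjusted p = 0.030). For all 3 the TRAF3KO arrays were above the control arrays. When arrays were dropped singly, Iars and Vars missed the threshold in 4 of 6 fits and Farsb in all 6. No synthetase was called with the mean of probes, without a trend or without variance moderation. The same held without control replicate 1, without control replicate 3 and without TRAF3KO replicate 1.

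Of 21 tested genes of the amino acid response, a list made up largely of known ATF4 targets, 3 rose and 0 fell, with a median of 0.06. At an unadjusted p under 0.05 (limma) 7 were higher and 1 lower. In 2 of 18 alternatives 1 gene of the list was called lower. Chac1, an enzyme that degrades glutathione, measured 7.90, 8.46 and 7.50 in control and 8.85, 8.92 and 9.11 in TRAF3KO. Its groups were apart, and it rose by 1.00 ± 0.22 (2.01-fold, adjusted p = 0.031). Herpud1, a protein of endoplasmic reticulum quality control, rose by 0.43 ± 0.06 (adjusted p = 0.0023), and Shmt2, the mitochondrial serine hydroxymethyltransferase, by 0.49 ± 0.12 (adjusted p = 0.047). Herpud1 was called in all 6 fits that left out 1 array, Chac1 in 1 and Shmt2 in 0. With the mean of its probes Shmt2 differed by 0.14 (adjusted p = 0.76). Without a trend or without variance moderation 0 of the list were called higher, Herpud1 included (adjusted p up to 0.11). Other classic members were not called: Asns, the asparagine synthetase, differed by 0.06 ± 0.29, Trib3, a pseudokinase, by 0.72 ± 0.28, and Atf4 itself by -1.42 ± 0.43 (adjusted p = 0.94, 0.24 and 0.11). Atf4 measured 11.28, 11.13 and 10.20 in control and 8.99, 10.64 and 8.72 in TRAF3KO, with a 95% interval of -2.37 to -0.47. Only TRAF3KO array 2 lay among the control values. Asns, Trib3 and Atf4 were named after their values were seen.

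Promoters from RefSeq (GRCm38.p6, 250 bases before to 50 after the transcription start) were available for 41 of the 57 transporter genes and searched on both strands for TGATGNAA, a core of the element bound by ATF4 with C/EBP partners. It was found for 4 of the 41 genes (9.76%), namely Slc1a4, Slc7a7, Slc7a11 and Slc6a21, and for 4.51% of all 27025 genes in the table. Of the 35 synthetase and amino acid response genes with a promoter it was found for 12, including 3 of the 5 called ones (Chac1, Herpud1 and Iars). The other genes with a match, such as Asns, Trib3 and Aars, were not called. Known ATF4 targets make up much of the response list, so matches there follow in part from how it was chosen. No promoter of Slc7a5 or Slc7a3 was used, and that of Slc7a6 holds no match. The E-box CACGTG, which overlaps none of these matches, was found for 7 of the 41 transporter genes (17.1%) and 8.09% of all genes, and the NF-kB consensus for 7 (17.1%) and 9.55%, Slc7a7 among the latter. A match describes the letters only.

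The following stretches show the shared core beside genes that differed in their arrays: Slc1a4, whose groups were apart, Slc7a11, which was listed at the floor on all arrays, and the 3 called genes that hold it. Each is on the strand of its gene, 5′ to 3′, and capitals mark the match or its reverse complement.
Slc1a4, chr11:20332684-20332743, minus strand: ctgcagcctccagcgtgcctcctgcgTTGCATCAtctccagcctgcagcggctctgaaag
Slc7a11, chr3:50443627-50443705, minus strand: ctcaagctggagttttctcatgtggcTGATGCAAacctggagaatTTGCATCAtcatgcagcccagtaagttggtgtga
Chac1, chr2:119351023-119351082, plus strand: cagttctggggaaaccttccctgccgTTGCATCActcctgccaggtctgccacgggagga
Iars, chr13:49682111-49682170, plus strand: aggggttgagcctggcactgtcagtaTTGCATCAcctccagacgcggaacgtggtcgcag
Herpud1, chr8:94386291-94386350, plus strand: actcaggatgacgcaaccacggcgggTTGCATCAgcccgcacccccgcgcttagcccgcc
All 5 carry the same 8 bases, and nothing about the level or change of Slc7a11 can be read from its floor values. Genes that were not called, such as Aars, Tars and Slc7a7, hold these 8 bases too, and Asns and Trib3 hold other forms of the core.

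Among 16 tested branched-chain, arginine and serine enzymes 2 rose and 1 fell, with a median of 0.13. Odc1, the first enzyme of polyamine synthesis, rose from 12.82 ± 0.27 to 13.61 ± 0.12 (SD, n = 3), by 0.79 ± 0.12 (adjusted p = 0.0038). It was called in 15 of 18 alternatives, including all 6 fits that left out 1 array, and not without a filter, trend or variance moderation (adjusted p up to 0.20). In the breakdown of branched-chain amino acids Bcat2, the mitochondrial aminotransferase, rose by 0.42 ± 0.09 (adjusted p = 0.032) and Bckdha, a subunit of the ketoacid dehydrogenase, fell by 0.44 ± 0.09 (adjusted p = 0.019). Bcat2 lost the call in 5 of those 6 fits and Bckdha in 4. Other subunits of the same dehydrogenase complex, named after their values were seen, were not called: Bckdhb differed by 0.41 ± 0.33 and Dbt by 0.01 ± 0.11.

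Amino acid sensing genes of the mTORC1 pathway had 0 of 26 called by limma (at an unadjusted p under 0.05, 3 higher and 1 lower), with a median of 0.01. The largest differences were those of Sesn3, a sestrin, at 0.55 ± 0.19 (adjusted p = 0.17), and Nprl3, a subunit of the GATOR1 complex that restrains mTORC1, at 0.53 ± 0.13 (adjusted p = 0.051, under 0.05 in 5 of 18 alternatives). Over all 18 Nprl3 ran from 0.33 to 0.64 (limma adjusted p from 0.025 to 0.86). Another sestrin, Sesn1, differed by -0.37 ± 0.10 with its groups apart (adjusted p = 0.075), and was named after its values were seen. In 4 of 18 alternatives 1 sensing gene was called lower. Of 13 glutamine and glutathione enzymes 0 were called by limma (unadjusted, 3 higher and 1 lower, median 0.04), with Ctps, a CTP synthetase that uses glutamine, at 0.44 ± 0.13 and the dim Ggt5, a gamma-glutamyl transferase, at 0.58 ± 1.49. Of 20 other amino acid carriers, such as those of mitochondria, 0 were called by limma (unadjusted, 1 higher and 3 lower, median -0.17). Over the alternatives 1 was called lower in 7 of 18 and 1 higher in 2 of 18. Slc15a3, a lysosomal carrier of histidine and peptides named after its values were seen, measured 9.54, 9.29 and 9.83 in control and 8.49, 9.07 and 8.93 in TRAF3KO. Its groups were apart, and its difference of -0.73 ± 0.18 had an adjusted p of 0.051. The largest differences were those of 2 dim genes, the mitochondrial carrier Slc25a13 at -1.87 ± 1.84 and the vesicular glutamate carrier Slc17a6 at 0.90 ± 1.44.

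The list of partners and regulators of transport had 0 of 16 higher and 3 lower, with a median of -0.16. Sgk1, a kinase that raises the surface level of several carriers, measured 11.76, 11.32 and 11.57 in control and 10.47, 10.05 and 10.23 in TRAF3KO. Every TRAF3KO array was below every control array, and Sgk1 fell by 1.30 ± 0.13 (adjusted p = 0.00041). The call was kept in 15 of 18 alternatives, including all 6 fits that left out 1 array, and lost without a filter, trend or variance moderation (adjusted p up to 0.11), where 0 of the list were called lower. Txnip, an arrestin-like protein that removes glucose transporters from the surface, fell by 0.65 ± 0.12 (adjusted p = 0.011). Marchf1, a ubiquitin ligase best known for its action on MHC class II, fell by 0.31 ± 0.07 (adjusted p = 0.030) and lost the call in all 6 such fits, while Txnip lost it in 1. These 3 encode a kinase, an arrestin-like protein and a ubiquitin ligase, and no subunit of a carrier. Myc, a transcription factor that raises Slc7a5 and Slc1a5 in activated lymphocytes, differed by 0.49 ± 0.19 (adjusted p = 0.23, named after its values were seen).

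**Figure D4:**
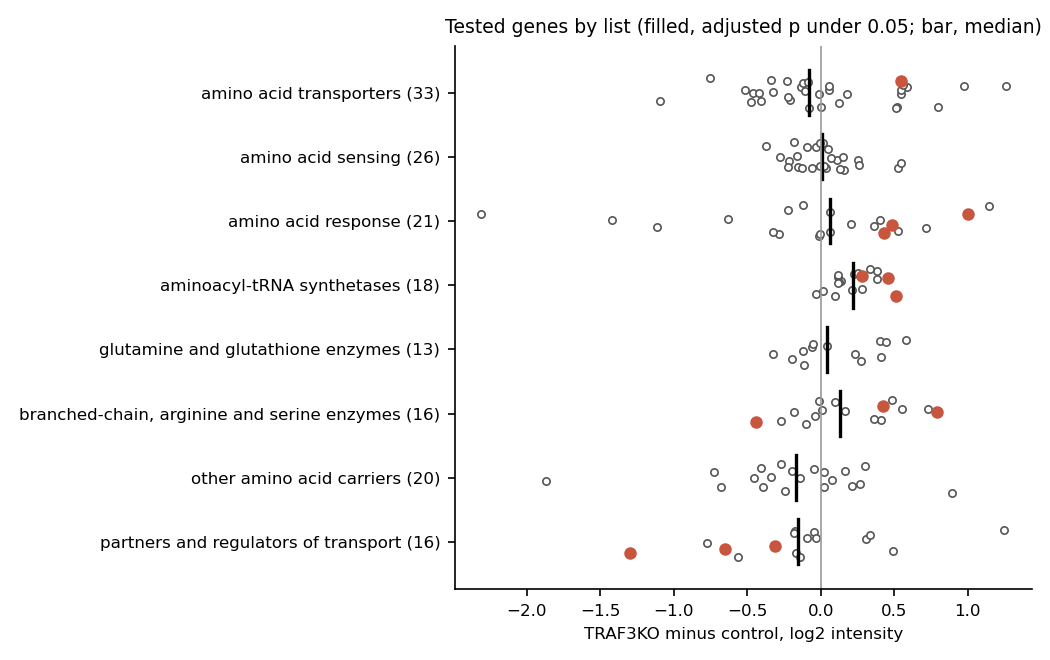
Difference between TRAF3KO and control in log2 intensity (x axis) for the tested genes of each list (y axis, number of genes in brackets), with called genes filled, the median of each list as a black bar and the median of all genes as a grey line. Transporters show 1 filled point and a median of -0.08, synthetases 3 filled points and a median of 0.22, and the regulators 3 filled points on the left.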

How the data were processed

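The deposited table holds log2 intensities of 25697 probes on 6 arrays. The submitters' processing notes list BeadStudio 3.2.3 with no role given, and neither they nor the labels say how background, normalisation or the floor were handled. The sorted values of the arrays differed by at most 0.138 at any rank, and 31.3% to 31.4% of each array lay at 0. Arrays have no sequencing depth, and their number limits the precision. GEO's platform annotation named 23141 probes with 1 gene each, and 2556 are unnamed here. Slc43a1 was not analysed here, and the Traf3 deletion could not be checked.

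Values were used as deposited. Probes above the 40th percentile on at least 3 arrays (15657) entered a linear model in limma 3.58.1 (R 4.3.3; lmFit and eBayes with trend, group as the only term), with Benjamini-Hochberg adjustment over all of them, and genes were called at an adjusted p under 0.05. The procedure was tested on simulated data. Named were every called member, the 4 largest differences in each direction among the rest, 18 transporters fixed by name and, per list, up to 4 called genes or the 2 largest differences, and other members were added to account for the families. Members, lists and alternatives were chosen with earlier results of these data known. Replicate numbers are shared by the groups, but the labels do not state that they pair arrays, so the arrays were not treated as paired. The deviations of same-numbered arrays correlated at 0.030 to 0.044. By inferred sex control replicate 3 was male and TRAF3KO replicate 3 female. Alternatives were other normalisation, filters, variance models, weights, offsets, blocks and leaving out each array.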

Additional observations from a re-analysis of the deposited data

How the results depend on the processing

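The single call among transporters, 1 gene higher, depended on the setting. The number of transporters called higher was 0 with no filter, with no trend, with the replicate block, with a block for inferred sex and with unmoderated variances, and 0 to 1 over the fits that left out 1 array. In the fit without TRAF3KO replicate 3 the called gene was Slc7a7, not Slc7a5. The number called lower was 0 in every alternative run. The replicate block moved the adjusted p of Slc7a5 from 0.037 to 0.051 and called no other named transporter. Each array correlated best with the array of its own number, at r of 0.030 to 0.044, a hint from the data and not from the design. Of 19 named and tested transporters 12 kept their direction in all alternatives, and 7, none of them called, changed sign. Of the 12, leaving out 1 array moved Slc7a8 between -1.83 and -0.25, Slc6a11 between -1.38 and -0.27, Slc6a21 between 0.27 and 0.81, Slc38a1 between 0.095 and 1.06, Slc1a5 between -0.39 and -0.025, Slc38a9 between -0.17 and -0.017 and Slc7a3 between 0.51 and 1.29, none of them called. Over the fits that left out 1 array Slc3a2 ran from -1.50 to 0.77, Slc7a2 from -1.23 to 0.48, Slc36a2 from -0.76 to 2.31, Slc43a3 from -0.75 to 0.57, Slc38a2 from -0.085 to 0.10, Slc38a5 from -0.88 to 0.56 and Slc6a6 from -0.013 to 0.11. Slc7a2 was 0.35 with the mean of probes, Slc38a2 -0.011 with array weights, and Slc36a2 and Slc43a3 -0.058 and 0.089 with low values raised. With inferred sex as a block Slc43a3 was 0.17 and Slc38a5 0.34. Of the list genes Iars was -0.12 with the mean of probes, Ggt5 -0.25 with an offset of 50, -0.74 with low values raised and -1.49 to 1.69 without 1 array, and Slc17a6 -0.60 to 1.99 without 1 array. The cause was not tested. Fewer arrays, and with no filter more probes, also lower the power of those fits. Over the 18 alternatives the synthetases called higher numbered 0 to 4 (3 as reported), the response genes 0 to 4 (3), the branched-chain, arginine and serine enzymes 0 to 3 (2) with 0 to 1 lower (1), and the regulators called lower 0 to 3 (3). Response genes called lower numbered 0 to 1 (0 as reported), and so did sensing genes and other carriers in either direction.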
